A study of Mus musculus with 18 samples.

Results

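The 9 genes described here encode hepatokines and other secreted metabolic regulators: *Ahsg*, *Fetub*, *Rbp4*, *Fgf21*, *Gdf15*, *Inhbe*, *Angptl4*, *Lect2* and *Enho*. They were taken by name from the 23352 gene symbols in the tables, and all 9 were found. Poly(A) RNA was sequenced from the livers of 18 male mice aged 20 weeks, of a C57BL6 background (C57BL/6J eggs in the study's methods), all fed a high-fat diet (HFD). The wild-type group held 9 mice, and the *Gpr180*KO group held 9 mice homozygous for a CRISPR/Cas9 deletion of exon 6 of *Gpr180* in the whole body. The deletion is present in every tissue, so a difference in the liver cannot be assigned to the loss of *Gpr180* in liver cells. Each title carries its own mouse number, which was taken as 1 library per mouse.

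Hepatokines are proteins that the liver releases into the blood and that act on other organs, much as hormones do. The liver adjusts their synthesis to feeding, fat load and cell stress, and in fatty liver disease several circulate at altered levels. Some are abundant plasma proteins made by hepatocytes at all times, and others are made at low levels until nutrient or stress signals raise them.

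The values are FPKM as deposited by the authors, fragment counts scaled to transcript length and to the mapped reads of the library. A gene was called lower or higher when limma's moderated test on log2(FPKM + 0.1) gave a Benjamini-Hochberg adjusted p below 0.05 over the 10835 genes with a mean of at least 1 FPKM. All log2 differences are *Gpr180*KO minus wild-type on that scale, which understates the change of low genes. Titles come in 2 forms, and each holds both genotypes. Form 1 (such as W317HFD and KO319HFD) has 4 livers per genotype, and form 2 (such as WThfd131 and KOhfd51) has 5 per genotype. The labels do not say what the forms mark, so values are given within each form beside those over all livers.

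*Gpr180* checked the genotype labels. It lay between 4.46 and 9.24 FPKM in the wild-type livers and between 0.876 and 1.99 FPKM in the *Gpr180*KO livers, with no overlap. Its log2 difference was -1.998 ± 0.177 (SE, limma adjusted p = 4.74e-06), and the two-sided exact permutation test over 48620 splits gave p = 4.11e-05, the smallest it can give. The FPKM covers the whole gene, including exons outside the deletion. The tables hold no counts, so the depth behind a value is unknown, and an estimate from low genes put the libraries at 44.3 to 100% of the depth of W317HFD. Across all genes tested the median log2 difference was -0.13, and median-of-ratios scaling between libraries moved it to 0.02. KOhfd51 stood apart, with an FPKM sum of 718746 against 554796 to 629067 in the others. Its 10 hepatocyte markers summed to 53725 FPKM, against 21752 to 32547 in the others, and its adipocyte markers to 344.8 FPKM, against 21.9 to 130.4. The hepatocyte sum was set mostly by *Apoa1* and *Apoa2* (wild-type means of 7644 and 15230 FPKM), named here after their values were seen. Of the adipocyte markers, *Plin1* was listed at 0 in every liver and *Cfd* and *Fabp4* alone had a mean above 1 FPKM, and their part in any result of KOhfd51 was not tested.

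Of the 9 genes, 1 was called: *Gdf15* was lower in *Gpr180*KO livers, at 42.9% of the wild-type mean. In bulk liver, fewer cells of a type and less RNA per cell cannot be told apart. The background was 4.28% of all genes tested called lower (464 genes) and 0.452% called higher (49 genes). *Inhbe*, *Lect2* and *Fgf21* had lower means in the *Gpr180*KO livers but did not pass the test over all 18 livers. At an unadjusted limma p under 0.05 the count was 4 of 9, beside 2403 of the 10835 genes tested. The median log2 difference of the 9 genes was -0.26, beside -0.13 for all genes tested, with 6 below 0 and 3 above. No gene of the 9 separated the genotypes completely, and 0.175% of all genes had every *Gpr180*KO value below every wild-type value. After median-of-ratios scaling none of the 9 was called, with *Gdf15* at an adjusted p of 0.0515 in limma, when 1.34% of all genes were called lower. In that fit 4 of the 9 had an unadjusted p under 0.05, beside 1938 of 10824 genes tested. Of these 4, *Gdf15*, *Inhbe* and *Lect2* were lower and *Rbp4* was higher, and *Fgf21* was no longer among them.

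**Figure D1:**
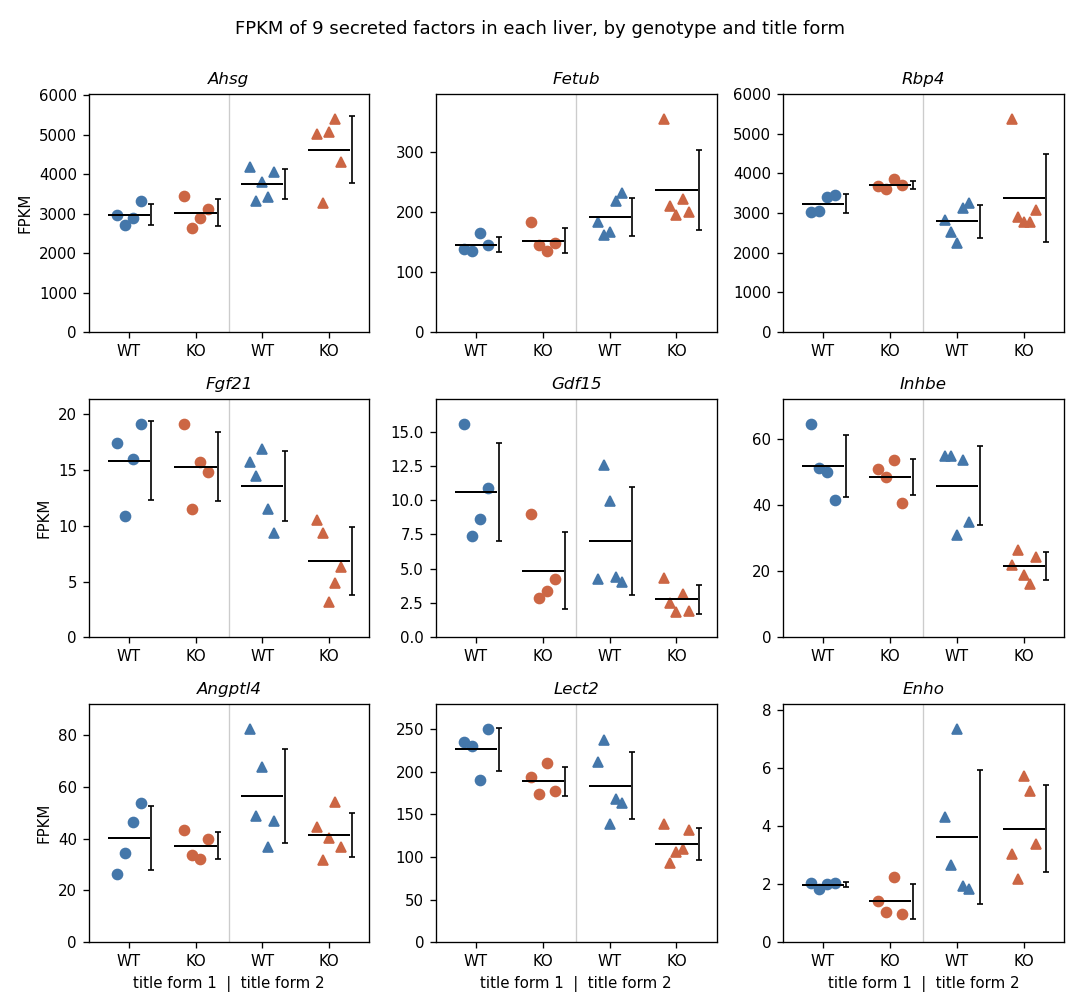
FPKM of each of the 9 genes (vertical axis, linear, from 0) in every liver, by genotype (WT, blue; *Gpr180*KO, marked KO, orange) and title form (form 1, circles; form 2, triangles). Black lines are group means and bars 1 SD. *Inhbe* in form 2 ranges from 16.0 to 26.3 FPKM in the *Gpr180*KO livers, below the lowest wild-type value of 30.9. In form 2, 5.5% of all genes tested separated this way.

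The genes spanned a range of levels from about the most abundant transcripts of the liver to barely above the minimum. FPKM is per length, so levels can be set side by side. In wild-type livers *Ahsg* had a mean of 3408 FPKM and *Rbp4* of 2992 FPKM, and they ranked 19 and 22 of 23328 genes by mean over all livers. *Lect2* (203 FPKM) and *Fetub* (172 FPKM) followed, then *Angptl4* (49.2 FPKM) and *Inhbe* (48.4 FPKM), then *Fgf21* (14.6 FPKM), *Gdf15* (8.62 FPKM) and *Enho* (2.90 FPKM). Within each of these groups, the ranges of neighbouring genes over the wild-type livers overlapped, so their order is not set beyond the spread. Between groups the ranges did not overlap. In the *Gpr180*KO livers the order of the means was the same except that *Fetub* (199 FPKM) stood above *Lect2* (148 FPKM). The 9 genes together summed to 6237 to 7797 FPKM in wild-type livers and 6545 to 10970 FPKM in *Gpr180*KO livers, a sum set mostly by *Ahsg* and *Rbp4*.

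*Fgf21* encodes a hormone of fasting and nutrient stress that acts through beta-Klotho and FGF receptors. Its gene lies at chr7:45613890-45615490 on the minus strand (mm10, 1-based). *Inhbe* encodes the beta-E chain that forms activin E, a liver-made TGF-beta family ligand that acts on fat cells, and lies at chr10:127349402-127351772 on the minus strand. The RefSeq promoters of these 2 genes share an 8-letter match, so the 250 bases before each RefSeq start are shown (GRCm38.p6, 5′ to 3′ along the gene, minus strand of chr7:45615491-45615740 and chr10:127351849-127352098). Capitals mark the match to the core of the C/EBP-ATF composite element, through which ATF4 is known to act.
Fgf21: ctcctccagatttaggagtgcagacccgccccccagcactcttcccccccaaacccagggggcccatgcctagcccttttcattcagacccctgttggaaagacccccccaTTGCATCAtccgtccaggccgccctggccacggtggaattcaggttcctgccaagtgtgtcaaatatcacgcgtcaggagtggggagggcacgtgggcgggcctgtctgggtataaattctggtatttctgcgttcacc
Inhbe: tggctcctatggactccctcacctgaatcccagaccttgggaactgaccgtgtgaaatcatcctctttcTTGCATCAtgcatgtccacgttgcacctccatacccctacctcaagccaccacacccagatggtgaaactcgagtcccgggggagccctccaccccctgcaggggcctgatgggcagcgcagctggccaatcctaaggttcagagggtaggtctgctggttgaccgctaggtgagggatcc

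Both hold TTGCATCA, the reverse complement of TGATGCAA, which begins 139 bases before the start in *Fgf21* and 181 bases before it in *Inhbe*. The letters TGATGNAA, searched on both strands, occurred in 3.97% of 32851 RefSeq promoter windows of 250 bases before to 50 after a start, and the narrower TGATGCAA in 0.895%. Windows were given for 7 of the 9 genes, all but *Angptl4* and *Enho*, and *Rbp4* held the only other match, TGATGAAA, 76 bases before a start. The cyclic AMP response element TGACGTCA (1.79% of windows) and the PPAR response element of direct repeats (0.0396%) had no match in the 7 genes. The E-box CACGTG (7.15%) was found 50 bases before the start of *Fgf21* and 83 bases before a start of *Gdf15*, and TATAAA (13.6%) in *Fgf21*, *Fetub* and *Rbp4*. The RefSeq start of *Inhbe* is 76 bases from the start in the FPKM tables, and those of *Gdf15* are 460 and 821 bases away. A match is a description of letters, and the motifs were chosen with the matches in view.

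*Gdf15* encodes a stress-induced cytokine that signals through GFRAL and RET in the hindbrain to lower food intake, and lies at chr8:70629394-70631635 on the minus strand. In wild-type livers it ranged from 4.03 FPKM (WThfd157) through a median of 8.66 to 15.5 FPKM (W317HFD). In *Gpr180*KO livers it ranged from 1.87 FPKM (KOhfd53) through a median of 3.17 to 9.01 FPKM (KO319HFD). KO319HFD was the only *Gpr180*KO liver above the wild-type mean, and 6 of 9 lay below the lowest wild-type liver. KO319HFD also had the lowest relative depth, 44.3%, and the part of depth in its value was not tested. Means were 8.62 ± 4.03 FPKM (SD, n = 9) and 3.70 ± 2.18 FPKM (SD, n = 9), a log2 difference of -1.21 ± 0.30 (SE, limma adjusted p = 0.0302), and 228 of the genes tested had a smaller p. The two-sided exact permutation test gave p = 0.0028.

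The difference in *Gdf15* was close to equal in the title forms, at -1.20 ± 0.40 (SE) in form 1 and -1.22 ± 0.36 (SE) in form 2, from 1 joint limma fit. It passed the test in form 2 (adjusted p = 0.0395) and not in form 1 (adjusted p = 0.405). The form 2 call was lost after median-of-ratios (adjusted p = 0.0965) and 75th percentile scaling (0.0689). It was also lost, with adjusted p up to 0.121, when W319HFD, W320HFD, WThfd133, WThfd134, KO322HFD, KOhfd52, KOhfd53, KOhfd54 or KOhfd56 was left out. The wild-type livers of form 2 fell apart, with 12.6 and 9.92 FPKM in WThfd133 and WThfd134 and 4.03 to 4.42 FPKM in the other 3. The highest *Gpr180*KO value of form 2, 4.35 FPKM in KOhfd51, lay above the lowest wild-type value. The call over all livers was lost (adjusted p 0.0528 to 0.0716) when W317HFD, W318HFD, W320HFD, WThfd133, KOhfd52, KOhfd53 or KOhfd54 was left out, and it held in the other 11 such fits, including without KO319HFD or KOhfd51.

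*Inhbe* was called lower in form 2 and not in form 1, although the difference between the forms did not pass its own limma test. In form 1 the wild-type livers had 64.4, 51.1, 49.9 and 41.6 FPKM, and the *Gpr180*KO livers had 50.8, 48.6, 53.6 and 40.8 FPKM. These groups overlapped, and the log2 difference was -0.08 ± 0.20 (SE). In form 2 the wild-type livers had 54.9, 54.9, 30.9, 53.5 and 34.8 FPKM, and the *Gpr180*KO livers had 21.9, 26.3, 18.9, 16.0 and 24.3 FPKM. Every *Gpr180*KO liver of form 2 was below every wild-type liver, which held for 5.5% of all genes tested (596 genes), and the log2 difference was -1.07 ± 0.18 (SE, limma adjusted p = 0.00357). Its adjusted p was 0.0105 under median-of-ratios scaling and 0.00601 under 75th percentile scaling, and lay between 0.000824 and 0.0147 with any 1 library left out. A limma fit of the form 2 livers alone called no gene at all (0 of 10835, with 2019 at an unadjusted p under 0.05), and there *Inhbe* had an adjusted p of 0.0889. Over all livers the means were 48.4 ± 10.7 and 33.5 ± 14.9 FPKM (SD, n = 9 each), a log2 difference of -0.63 ± 0.23 (SE, adjusted p = 0.111, exact permutation p = 0.0232), which library weights moved to -0.30.

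The difference of the form 2 effect from the form 1 effect was itself tested. For *Inhbe* it was -0.98 ± 0.27 (SE) on the log2 scale, which ranked 32 of the genes tested by p but did not pass adjustment (limma interaction, unadjusted p = 0.00179, adjusted p = 0.581). The two-sided exact permutation of title form within each genotype, over 15876 regroupings, gave p = 0.048 for *Inhbe*, and 0.0936 for *Fgf21* and 0.255 for *Lect2*, before any adjustment over genes. That regrouping assumes no effect of form in either genotype, so it cannot test the difference between the genotype effects alone. No gene passed the limma interaction test, and 833 had an unadjusted p under 0.05.

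*Fgf21* too was called lower in form 2 and not in form 1. In form 1 it had 17.4, 10.9, 16.0 and 19.1 FPKM in wild-type livers and 19.1, 11.5, 15.7 and 14.9 FPKM in *Gpr180*KO livers. In form 2 it had 15.8, 14.4, 16.9, 11.5 and 9.32 FPKM in wild-type livers and 10.5, 9.32, 3.19, 4.89 and 6.28 FPKM in *Gpr180*KO livers. The form 1 groups overlapped almost entirely, while in form 2 every *Gpr180*KO liver except KOhfd51 lay below every wild-type liver, KOhfd52 only just (9.316 against 9.32 FPKM in WThfd157). The log2 difference was -0.04 ± 0.30 (SE) in form 1 and -1.07 ± 0.27 (SE, limma adjusted p = 0.0201) in form 2. The form 2 call was lost after median-of-ratios scaling (adjusted p = 0.0685) and without WThfd133 (0.0604) or KOhfd53 (0.0508). Over all livers means were 14.6 ± 3.33 and 10.6 ± 5.31 FPKM (SD, n = 9 each), a log2 difference of -0.61 ± 0.28 (SE, adjusted p = 0.197), which library weights moved to -0.30. The two-sided exact permutation test gave p = 0.06 for it.

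*Lect2* encodes leukocyte cell-derived chemotaxin 2, a hepatocyte-secreted protein known to bind the receptors MET and TIE1, and lies at chr13:56542460-56548538 on the minus strand. In wild-type livers it ranged from 139 FPKM (WThfd134) through a median of 211 to 249.6 FPKM (W320HFD), and in *Gpr180*KO livers from 92.6 FPKM (KOhfd52) through a median of 138 to 211 FPKM (KO321HFD). No *Gpr180*KO liver reached the wild-type median, though the groups overlapped. The log2 difference was -0.48 ± 0.16 (SE, limma adjusted p = 0.0858, exact permutation p = 0.0143), which did not pass the test. In form 2 every *Gpr180*KO liver (92.6 to 138.2 FPKM) lay below every wild-type liver (138.8 to 237.5 FPKM), by a margin of under 1 FPKM. Such a separation in form 2 held for 5.5% of all genes tested (596 genes). The form 2 log2 difference of *Lect2* was -0.66 ± 0.14 (SE, limma adjusted p = 0.0103). In form 1 the ranges overlapped (173 to 211 against 190 to 249.6 FPKM), with -0.26 ± 0.16 (SE, adjusted p = 0.759). After median-of-ratios scaling the form 2 value was -0.45 and was not called (adjusted p = 0.0707).

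In the joint fit 4 of the 9 genes were called lower in form 2 (*Fgf21*, *Gdf15*, *Inhbe* and *Lect2*), where 9.36% of all genes were called lower. After median-of-ratios scaling the same fit called *Inhbe* alone of the 9, beside 2.43% of all genes (263 genes in place of 1014), and after 75th percentile scaling it called *Fgf21*, *Inhbe* and *Lect2*, beside 3.78%. Leaving out 1 library moved the number of genes called lower in form 2 from 330 (without WThfd133) to 1842 (without KOhfd51). None was called in form 1, where 0.0185% of all genes (2 genes) were called lower and 1 of the 9 had an unadjusted p under 0.05. Fits of each form alone, with their own estimate of the spread, turned this contrast around. The fit of form 1 alone called 4.5% of all genes lower (488 genes) and 90 higher, with 0 of the 9 called in limma. There 4 of the 9 had an unadjusted p under 0.05 (*Gdf15*, *Enho* and *Lect2* lower, *Rbp4* higher), beside 2638 of the 10835 genes tested. The fit of form 2 alone called no gene. With title form as a block over all 18 livers, *Gdf15*, *Inhbe* (adjusted p = 0.0249) and *Lect2* (0.0123) were called lower in limma, beside 9.52% of all genes. Median-of-ratios scaling together with that block left *Gdf15* alone (adjusted p = 0.0231). The size factors of that scaling moved with genotype and form: they ran from 0.813 to 0.955 in the *Gpr180*KO livers of form 2, 0.956 to 1.10 in the wild-type livers of form 2 and 1.002 to 1.114 in form 1. Their part in the form 2 differences was not tested.

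**Figure D2:**
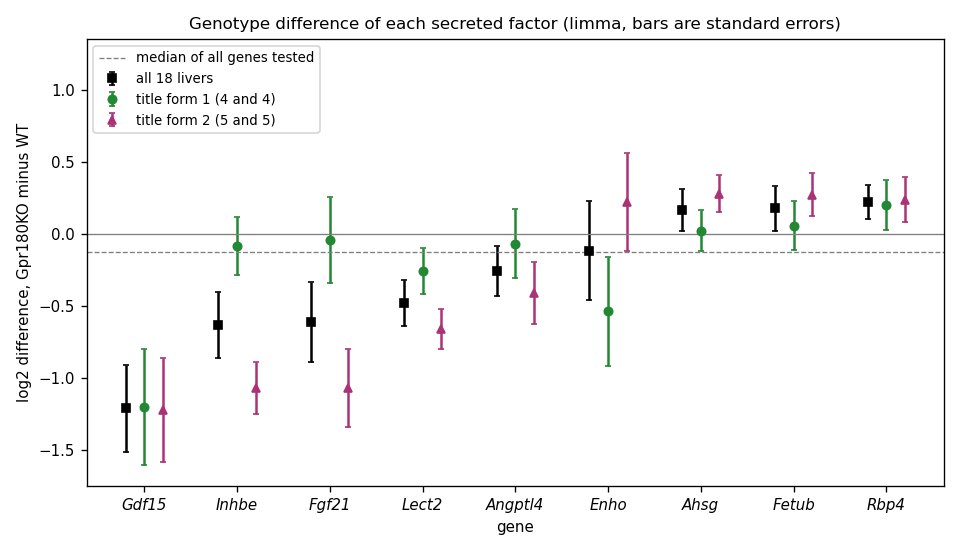
Log2 difference, *Gpr180*KO minus wild-type, of each gene over all 18 livers (squares), in title form 1 (circles) and in title form 2 (triangles), with standard errors as bars; the dashed line is the median of all genes tested, -0.13. *Gdf15* is near -1.2 in all 3, whereas *Inhbe* and *Fgf21* are near 0 in form 1 and near -1.07 in form 2.

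The abundant plasma proteins had slightly higher means in the *Gpr180*KO livers, and none was called. *Ahsg* encodes fetuin-A, a carrier that limits calcification and inhibits the insulin receptor. It ranged from 2709 through a median of 3328 to 4190 FPKM in wild-type livers and from 2640 through 3451 to 5386 FPKM in *Gpr180*KO livers, with a log2 difference of 0.17 ± 0.14 (SE, limma adjusted p = 0.497), which was 0.32 after median-of-ratios scaling, 0.10 without KOhfd54 and 0.0055 with library weights. The 4 *Gpr180*KO livers above every wild-type liver were all of form 2. *Fetub* encodes fetuin-B, a protease inhibitor needed for fertilization. It lies next to *Ahsg* on the plus strand, with *Ahsg* at chr16:22892015-22899451 and *Fetub* at chr16:22918382-22939768. *Fetub* ranged from 136 through 164 to 232 FPKM in wild-type livers and from 134.3 through 195 to 354 FPKM (KOhfd51) in *Gpr180*KO livers, with a log2 difference of 0.18 ± 0.16 (SE, adjusted p = 0.512). Without KOhfd51 that difference was 0.0661, with library weights 0.0038, and after median-of-ratios scaling 0.33.

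*Rbp4* encodes the carrier of retinol in plasma, which circulates bound to transthyretin, and lies at chr19:38116620-38125321 on the minus strand. It ranged from 2258 through a median of 3056 to 3464 FPKM in wild-type livers and from 2786 through 3620 to 5366 FPKM in *Gpr180*KO livers. In form 1 every *Gpr180*KO liver (3620 to 3857 FPKM) lay above every wild-type liver (3024 to 3464 FPKM), which held for 3.29% of all genes tested (356 genes), while in form 2 KOhfd51 alone exceeded the wild-type range. The log2 difference was 0.22 ± 0.12 (SE, limma adjusted p = 0.289), 0.14 without KOhfd51 (adjusted p = 0.391) and 0.38 after median-of-ratios scaling (adjusted p = 0.142).

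*Angptl4* encodes an inhibitor of lipoprotein lipase that is induced by fatty acids, and lies at chr17:33774900-33781575 on the minus strand. Its wild-type livers ranged from 26.4 (W317HFD) through 46.8 to 82.2 FPKM (WThfd131), and its *Gpr180*KO livers from 31.8 through 40.0 to 54.2 FPKM, inside the wild-type range. The log2 difference was -0.26 (95% interval -0.62 to 0.10, limma adjusted p = 0.384), which was -0.16 without WThfd131 and -0.10 after median-of-ratios scaling. *Enho* encodes adropin, a peptide tied to energy balance, and lies at chr4:41638144-41640302 on the minus strand. It ranged from 1.83 through 2.04 to 7.34 FPKM (WThfd134) in wild-type livers and from 0.963 through 2.27 to 5.75 FPKM (KOhfd53) in *Gpr180*KO livers. The highest values in both genotypes were in form 2, and the log2 difference of -0.11 had a 95% interval of -0.83 to 0.60 (limma adjusted p = 0.858) and turned above 0 under median-of-ratios scaling (0.0338) and without WThfd134, KO320HFD or KO322HFD (0.0261 to 0.0701). *Enho* shares 15 exon bases with *Dnaic1* on the opposite strand and *Ahsg* shares 62 with Gm30505, and how strand was counted is not given in the sources used here.

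**Figure D3:**
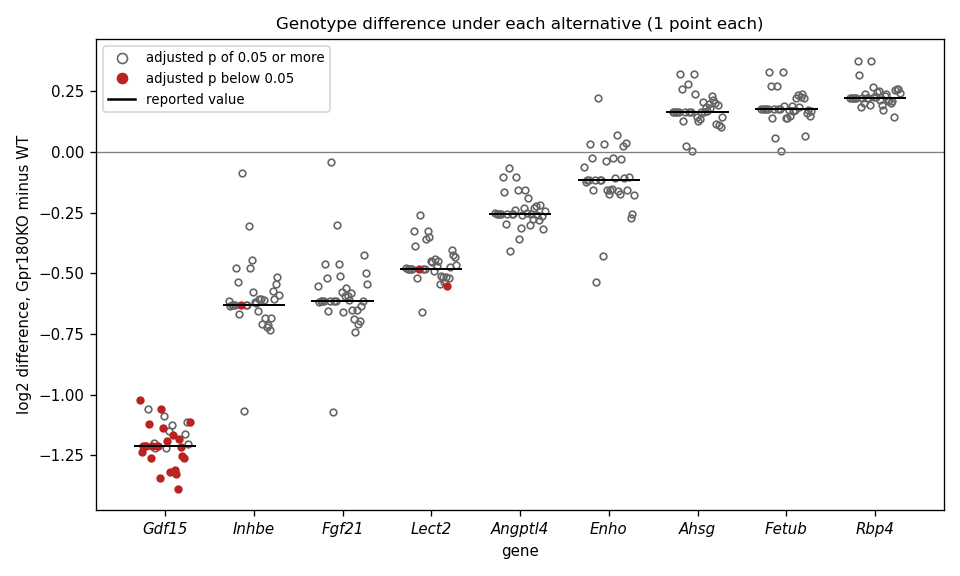
Log2 difference, *Gpr180*KO minus wild-type, of each gene under each alternative setting or with 1 library left out (1 point each; filled red where limma's adjusted p was below 0.05); the black line is the reported value. *Gdf15* stayed between -1.39 and -1.02, *Enho* fell on both sides of 0, and *Ahsg*, *Fetub* and *Rbp4* stayed above 0.

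Several of the genes varied together from liver to liver. After subtracting the genotype means, *Inhbe* and *Lect2* had a Pearson r of 0.806 (rho 0.806) over the 18 livers and *Fgf21* and *Inhbe* an r of 0.727, while *Ahsg* and *Inhbe* ran opposite (r = -0.803, rho -0.732). Of the 36 pairs, 9 had an r above 0.5 and 9 below -0.5, and the share among other gene pairs was not computed. These livers share title forms, and once the means of genotype and form were both subtracted the r was 0.46 for *Inhbe* and *Lect2*, 0.289 for *Fgf21* and *Inhbe* and -0.508 for *Ahsg* and *Inhbe*. Within form 1 alone the r was 0.169 for *Inhbe* and *Lect2* and 0.001 for *Fgf21* and *Inhbe*, and within form 2 alone 0.535 and 0.37. *Fgf21* and *Gdf15* had an r of 0.659 that changed less (0.581 after subtracting form, 0.768 over the 8 livers of form 1 and 0.519 over the 10 of form 2). The same held for *Angptl4* and *Ahsg*, with an r of 0.603 (0.635 after subtracting form, 0.577 in form 1 and 0.673 in form 2). *Ahsg* and *Fetub*, neighbours in the genome, had an r of 0.737, and 0.333 after subtracting form.

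The genes most like each of the 9 over the livers, of 10834 searched, are given as a description. For *Inhbe* it was *Glul*, glutamine synthetase of hepatocytes next to the central vein (r = 0.921), with 0.77 after subtracting form, 0.486 within form 1 and 0.84 within form 2. For *Fgf21* they were *Slc38a10* (0.922) and *Mgll* (0.905), a lipase of monoglycerides. For *Lect2* it was *Bdh1* (0.928), an enzyme of ketone body metabolism, with an r of 0.872 in form 1 alone and 0.822 in form 2 alone. For *Rbp4* it was *Apoa2*, an HDL apolipoprotein (0.948), but the r was 0.973 within form 2, which holds KOhfd51, and 0.173 within form 1. For *Gdf15* they were AI507597 (0.864) and *Apba3* (0.854), for *Ahsg* *Gjb1* (0.888) and *Aadat* (0.877), for *Fetub* 1190003J15Rik (0.906) and *Inmt* (0.869), and for *Angptl4* *Fgg* (0.768) and *Pck1* (0.763). For *Enho* they were *Tff3* (0.886) and *Serpina1e* (0.869), which fell to 0.061 and -0.063 within form 1. The second genes of *Inhbe* and *Rbp4* were *Wdr67* (0.91) and *Lmf1* (0.93, and 0.073 within form 1). The other pairs named here had an r of 0.565 to 0.901 within form 1.

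Receptors and partners of the 9 proteins were not called in either direction: of 26 genes 19 were tested, limma called 0, and 0 had an unadjusted p under 0.05, with a median log2 difference of -0.06. Over all genes tested, 4.28% were called lower and 0.452% higher, and 2403 of 10835 had an unadjusted p under 0.05. The most abundant were *Ttr*, transthyretin, the plasma partner of RBP4 (4518 ± 987 and 4657 ± 1377 FPKM, SD, n = 9 each), the retinol receptor gene *Stra6l* (1300002K09Rik in the tables, 52.05 FPKM in wild-type livers and a log2 difference of -0.04) and *Furin*, a protease that cleaves proproteins (51.8 and 46.8 FPKM). *Gfral*, the GDF15 receptor, and *Stra6* were listed at 0 in every liver, and *Klb*, which encodes beta-Klotho, had 10.7 and 11.7 FPKM; these 3 were picked out after their values were seen.

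Among 26 relatives of the 9 genes by family, 18 were tested, 4 were called lower and none higher, and the median log2 difference was 0.00. The shares over all genes tested were 4.28% called lower and 0.452% called higher. *Angptl2* fell by 0.60 ± 0.12 on the log2 scale (SE, limma adjusted p = 0.0159), and *Gdf10* (-0.87) and *Gdf2*, the ligand BMP9 (-0.40), were called lower too. *Lcn2*, an acute-phase lipocalin, fell by 2.27 ± 0.57 (SE, adjusted p = 0.0309), from 63.0 ± 38.4 to 14.8 ± 11.4 FPKM (SD, n = 9 each). The call of *Gdf2* was lost after median-of-ratios scaling and those of the other 3 were not. The abundant relatives *Kng1* (850.3 and 969 FPKM) and *Hrg* (359 and 403 FPKM) were not called.

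Of 25 other hepatokines 24 were tested, 5 were called lower and 1 higher, with a median of -0.25. Among all genes tested, 4.28% were called lower and 0.452% higher. *Igfbp2*, a binding protein of insulin-like growth factors, rose by 0.96 ± 0.18 (SE, limma adjusted p = 0.0124), from 136 ± 40.1 to 263 ± 78.3 FPKM (SD, n = 9 each). *Gpnmb*, also made by macrophages, fell by 2.31. *Selenop* (Sepp1 in the tables), the selenium transporter, fell by 0.33, and *Sparc*, a matrix protein named after its value was seen, fell by 0.72. *Lcn2* is in this list too. After median-of-ratios scaling *Igfbp2* and *Lcn2* were still called and *Gpnmb*, *Selenop* and *Sparc* were not. *Hamp* (1409 and 2272 FPKM), which encodes the iron hormone hepcidin, and *Hpx* (2721 and 2298 FPKM), the heme carrier hemopexin, were not called.

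PPAR-alpha is known to induce *Fgf21* and *Angptl4*, and the stress factor ATF4 to induce *Fgf21* and *Gdf15*. A list of other PPAR-alpha targets and a list of ATF4 and stress targets were therefore counted. The second list is broader than the targets of ATF4, and holds *Atf4* itself and stress genes of the endoplasmic reticulum such as *Dnajb9*. Of 17 PPAR-alpha targets limma called 0 (2 at an unadjusted p under 0.05), with a median of -0.10. For all genes tested, 4.28% were called lower and 0.452% higher, 2403 of 10835 had an unadjusted p under 0.05, and the median was -0.13. Of 19 ATF4 and stress targets 15 were tested (4 at an unadjusted p under 0.05), with a median of -0.20, 13 below 0 and 2 above. Of the 15, 2 were called lower: *Ddit4*, an inhibitor of mTORC1, fell by 0.77, and *Dnajb9*, a chaperone of the endoplasmic reticulum, fell by 0.78. Neither was called after median-of-ratios or 75th percentile scaling. Of 17 transcription factors *Nr1h4*, the bile acid receptor FXR, fell by 0.37 and lost its call under the same scalings. After median-of-ratios scaling *Srebf1*, named after its value was seen, was the only 1 of the 17 called, and it was higher. Without scaling it had 69.25 and 86.3 FPKM, a log2 difference of 0.32 (limma adjusted p = 0.138). *Atf4* itself had 49.99 and 49.42 FPKM and *Ppara* 64.2 and 56.5 FPKM, both not called and both named after their values were seen. The part of ATF4 or PPAR-alpha in the values of *Fgf21*, *Gdf15* and *Angptl4* was not tested.

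**Figure D4:**
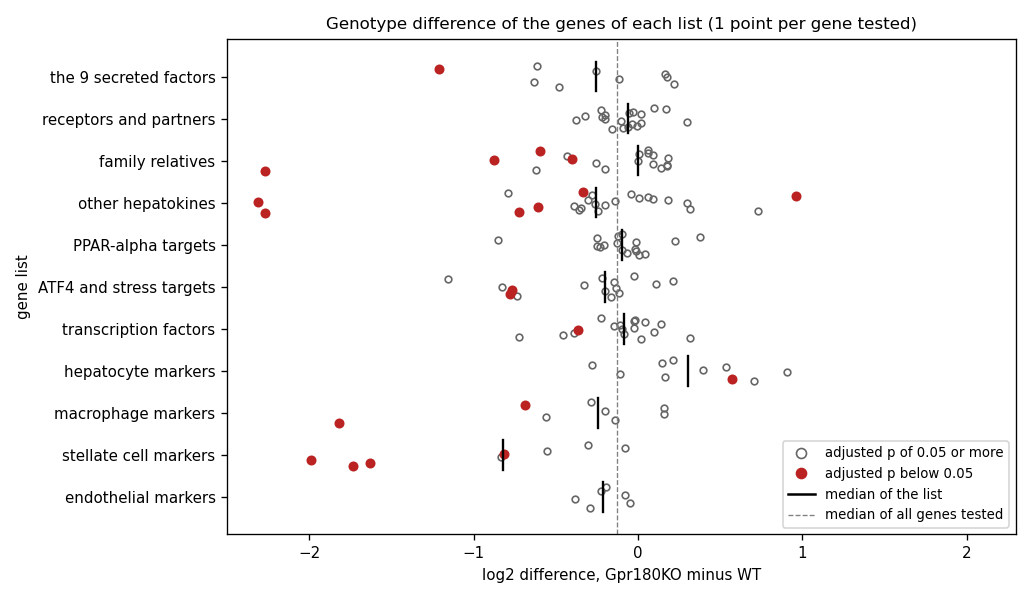
Log2 difference, *Gpr180*KO minus wild-type, of each tested gene (1 point each) in the lists of related genes and cell type markers; filled red points passed limma's adjusted p of 0.05, black lines are list medians, and the dashed line is the median of all genes tested, -0.13. The stellate cell markers have the lowest median, -0.82, and the hepatocyte markers the highest, 0.31.

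Some markers of other liver cells moved with genotype beside these results. The background for their calls was again 4.28% of all genes tested called lower and 0.452% called higher. The 8 stellate cell markers summed to 27.2 to 128 FPKM in wild-type livers and 16.8 to 46.9 FPKM in *Gpr180*KO livers, and 4 were called lower: *Col1a1*, *Col3a1*, *Col1a2* and *Pdgfrb*, with log2 differences of -1.99, -1.73, -1.63 and -0.82. The 8 macrophage markers summed to 157.2 to 394 and 186 to 279.7 FPKM, and *Cd68* and *Trem2* alone were called, both lower. Their median log2 difference was -0.24, with 6 below 0 and 2 above. The 2 above, *Clec4f* and *Timd4* (0.16 each), were named after their values were seen. Of the 10 hepatocyte markers *Hpd*, of tyrosine breakdown, rose by 0.57. The 6 endothelial markers gave 0 calls in limma (0 at an unadjusted p under 0.05), the 7 lymphocyte markers were all under the minimum of 1 FPKM and summed to 1.37 to 5.25 and 1.27 to 3.34 FPKM, and of the 5 cholangiocyte markers *Sox9* alone was tested and fell by 0.70, a call lost after median-of-ratios (adjusted p = 0.138) and 75th percentile scaling (0.11). Of the 6 adipocyte markers 2 were tested, with 0 calls in limma and 1 at an unadjusted p under 0.05. Of the 7 pancreas acinar markers *Cela1* alone was tested, with a log2 difference of 0.74 (limma adjusted p = 0.0552), and it was called higher with any of the 3 scalings or with title form as a block, while *Pnlip* and *Ctrb1* were at 0. The part of these cells in the difference of *Gdf15* and of the other genes was not tested.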

How the data were processed

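The authors made TruSeq mRNA libraries from liver RNA, sequenced single 75-base reads, ran the TopHat Alignment application against mm10 and deposited its FPKM output as 1 table per liver for 18 livers. The step in it that computed the FPKM, its version and its annotation are not given in the sources used here. Each table held 23847 entries. Entries that share a symbol were summed, and 24 genes with a failed status (all such values 0, none of the 9) were left out. Of the 162 values of the 9 genes, 74 lay outside the interval listed beside them, so those intervals were not used.

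Values were put on the scale log2(FPKM + 0.1) for genes with a mean of at least 1 FPKM, and limma 3.58.1 (lmFit and eBayes with trend, in R 4.3.3) gave p-values, adjusted by Benjamini and Hochberg's method over the 10835 genes. Title forms were compared by limma's interaction term. For single genes, the genotype means of log2(FPKM + 0.1) were also compared with two-sided exact permutation tests over all splits into 9 and 9. For the difference between title forms, form was permuted within each genotype. The steps were tested on simulated data. Starts in the tables count from 0 and were raised by 1. Promoters came from RefSeq (GRCm38.p6). Other steps used Python 3.11.15. Alternatives covered the pseudocount (1 and 0.01), the minimum (0.1, 5 and no FPKM minimum), 3 scalings, title form as a block or alone, each library left out, and limma options. The 9 genes and all lists were chosen with earlier results of these data known. Named were the 9 genes and *Gpr180*, up to 4 called genes of lowest p per list, the 3 most abundant of the first 3 lists, and the 2 genes most like each of the 9. Exceptions are marked, and 3 genes that this rule names are not reported here.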

Additional observations from a re-analysis of the deposited data

Results flagged for a closer look

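*Rbp4* in KOhfd51 stood apart from the other 8 *Gpr180*KO livers, at 5366 FPKM against 2786 to 3857 FPKM, with a gap of 0.504 of the group's range by Dixon's ratio. In all, 20 groups of 9 livers were checked this way, and chance marks about 1 group in 20. KOhfd51 also had the largest FPKM sum (718746) and the largest sum of hepatocyte markers (53725 FPKM, set mostly by *Apoa1* and *Apoa2*). The part of these in its *Rbp4* value was not tested.

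The genotype difference of *Inhbe* in title form 2 minus that in form 1 was -0.983 on the log2 scale, which did not pass the limma interaction test (adjusted p = 0.581). It was flagged by an exact permutation p of 0.048 before any adjustment over genes. That permutation assumes no effect of form in either genotype, so it does not test this difference alone. Every *Gpr180*KO liver of form 2 was below every wild-type liver of form 2, which held for 5.5% of all genes tested, and the groups of form 1 overlapped.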

How the results depend on the processing

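Of the genes tested 4.73% were called (513), and 5.97% (837) with a minimum of 0.1 FPKM, 3.53% (238) with 5, 2.69% with median-of-ratios scaling, 2.95% with 75th percentile scaling, 10.6% (1153) with title form as a block, 12.3% (1331) with library weights, 5.33% (578, of which 488 lower) in form 1 alone, 0 in form 2 alone in limma (2019 at an unadjusted p under 0.05) and 1.22 to 8.51% (132 without WThfd133 to 922 without WThfd157) with 1 library left out. Median-of-ratios scaling turned the split of lower against higher calls from 464 and 49 to 145 and 146, and 75th percentile scaling to 211 and 108. Of the 9 genes, 1 was called, and 0 with median-of-ratios scaling or in either form alone, 3 with the block, and 0 to 2 with 1 library left out (2 without KO321HFD, where *Lect2* had an adjusted p of 0.0462). *Gpr180* in form 2 alone was at -1.94 (adjusted p = 0.0654). The interaction gave 0 or 1 gene with 1 library left out. *Enho* turned above 0 with median-of-ratios scaling (0.0338, also with the block) and in form 2 alone (0.22), and ran from -0.271 to 0.0701 with 1 library left out. The difference between forms of *Gdf15* turned to 0.0399 with a pseudocount of 1, 0.0946 with median-of-ratios and 0.0197 with 75th percentile scaling, and with 1 library left out ran from -0.22 to 0.32, and that of *Rbp4* from -0.142 to 0.0949. The cause was not tested. The other values, 562 of 625, kept their direction and side of the threshold or, for counts, stayed within 1.5 times. 2 settings that join median-of-ratios scaling with the block or with leaving out KOhfd51, and leaving out libraries for the interaction, were added after seeing the data. None of the 9 genes had a mean under 1 FPKM over all livers, so no test was needed for genes below the minimum. *Enho* was nevertheless at 0.963 FPKM in KO322HFD. No paired analysis was possible because the genotypes share 2 mouse numbers only and nothing says that they mark a pair. The tables hold no counts, so no depth limit can be given for a value.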
